A study of Mus musculus with 4 samples.

Results

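The promoters of the mouse beta-defensin genes were examined in a chromatin immunoprecipitation data set for dimethylation of lysine 9 of histone H3 (H3K9me2) in vascular smooth muscle cells (VSMCs). Members were all rows of the deposited promoter table whose gene symbol starts with Defa or Defb followed by a number, or with Defa-, with beta- and alpha-defensins kept apart. By these symbols the table of 26354 promoters holds 41 beta-defensin rows and 0 alpha-defensin rows, so the members are the 41 beta-defensin promoters. The symbol alone decided which rows are members, but the family was chosen with earlier results of these data known.

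The 4 libraries come from the medial layer of aortae of male C57Bl/6J mice, taken ex vivo, with adventitia and endothelium removed by hand. In each of the independent experiments v102 and v134, 1 library was made from chromatin precipitated with an H3K9me2 antibody and 1 from the matching input, which is sheared chromatin that was not precipitated. No genotype or treatment separates the groups, and the comparison is of H3K9me2 ChIP against input, which asks how much of the mark lies at each promoter. The libraries hold no RNA, so the cell type cannot be checked by expression. Of 7 promoters of smooth muscle contractile and regulatory genes, 3 lay below input by edgeR's quasi-likelihood test (Myh11, Myocd and Lmod1; 1 with the replicate block, 0 with DESeq2), 1 lay above (Smtn), and their median percentile among all promoters was 13.9.

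H3K9me2 is placed mainly by the methyltransferases EHMT2 and EHMT1 and is known as a mark of silent genes in euchromatin, often spread over broad domains. Beta-defensins are small cationic peptides held together by disulphide bonds that kill microbes by disturbing their membranes, and several also attract immune cells through chemokine receptors. Some are made by epithelia of the skin, airway and kidney, and many are made in the epididymis, where they coat sperm. Alpha-defensins are, in the mouse, products of intestinal Paneth cells, where the protease MMP7 cuts their precursors.

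The 41 beta-defensin promoters lie in 5 groups on 4 chromosomes of GRCm38, where neighbouring start sites less than 1 Mb apart were taken as a group. There were 2 on chromosome 1, 11 on chromosome 2 within 158.4 kb, 14 in the first cluster of chromosome 8 (Defb40 to Defb7, 516.8 kb), 9 in the second cluster of chromosome 8 (Defb33 to Defb13, 1054 kb) and 5 on chromosome 14. The GENCODE annotation of this build lists 42 protein-coding beta-defensin genes, of which only Defb35 had no row in the table. It also lists 22 protein-coding alpha-defensin genes in an array of 709.9 kb between Defb33 and Defb1. In the windows within 1 kb of their start sites, a median of 80.3% of the 75-base words recurred elsewhere in the genome, and the alpha-defensins were not analysed here. At the 41 beta-defensin windows at most 16.2% of these words recurred (Defb7), and no window overlapped that of another listed promoter. The next highest were Defb9 with 12.6% and Defb10 with 10.3%, and reads from such stretches may belong to a related copy.

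Summed over the table, the ChIP libraries held 162233 reads in v102 and 229605 in v134, and the input libraries 619100 and 1084349. These totals are promoter reads and not sequencing depth, and they scale every ratio given here.

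Promoter sequences of 300 bases (250 before and 50 after the start site) were found in RefSeq (GRCm38.p6) for 29 of the 41 genes. The 6 printed here were chosen after their values were seen, to show CpG-free and CpG-bearing promoters from members with high and low H3K9me2. They run 5′ to 3′ in the direction of the gene, with CG dinucleotides in capitals. Defb8 and Defb10, from both clusters of chromosome 8, had the highest H3K9me2 of all members.

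Defb8, chr8:19447557-19447856, minus strand: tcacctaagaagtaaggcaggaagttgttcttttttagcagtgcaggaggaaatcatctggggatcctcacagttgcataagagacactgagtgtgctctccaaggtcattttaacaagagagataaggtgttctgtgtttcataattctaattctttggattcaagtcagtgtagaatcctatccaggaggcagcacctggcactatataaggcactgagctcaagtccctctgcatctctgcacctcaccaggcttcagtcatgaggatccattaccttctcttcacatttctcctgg
Defb10, chr8:21858651-21858950, plus strand: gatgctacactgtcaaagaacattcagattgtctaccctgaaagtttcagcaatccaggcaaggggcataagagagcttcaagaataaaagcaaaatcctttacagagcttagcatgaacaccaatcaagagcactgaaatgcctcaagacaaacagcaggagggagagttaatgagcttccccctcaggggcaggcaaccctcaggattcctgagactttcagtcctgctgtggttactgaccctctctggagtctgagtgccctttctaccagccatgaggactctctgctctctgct

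On chromosome 2, Defb26 had the highest value of its cluster, its neighbour Defb28 had a middle one, and Defb36 had one of the lowest.

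Defb26, chr2:152511687-152511986, minus strand: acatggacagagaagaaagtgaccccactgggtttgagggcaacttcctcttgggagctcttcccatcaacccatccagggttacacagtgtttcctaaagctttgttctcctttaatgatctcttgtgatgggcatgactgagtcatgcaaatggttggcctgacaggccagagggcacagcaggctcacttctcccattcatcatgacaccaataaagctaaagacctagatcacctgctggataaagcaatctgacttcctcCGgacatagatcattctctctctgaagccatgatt
Defb28, chr2:152518005-152518304, plus strand: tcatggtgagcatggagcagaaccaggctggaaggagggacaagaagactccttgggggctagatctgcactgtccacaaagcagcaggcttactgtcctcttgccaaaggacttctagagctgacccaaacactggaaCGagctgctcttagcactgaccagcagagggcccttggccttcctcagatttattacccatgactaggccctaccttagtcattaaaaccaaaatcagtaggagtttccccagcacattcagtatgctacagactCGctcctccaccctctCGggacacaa
Defb36, chr2:152604077-152604376, plus strand: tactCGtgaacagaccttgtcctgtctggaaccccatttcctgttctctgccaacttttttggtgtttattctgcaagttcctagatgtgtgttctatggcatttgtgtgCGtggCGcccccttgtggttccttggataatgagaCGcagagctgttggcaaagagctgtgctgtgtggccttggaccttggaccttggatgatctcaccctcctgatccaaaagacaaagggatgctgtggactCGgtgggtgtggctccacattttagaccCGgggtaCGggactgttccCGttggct

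Defb47 on chromosome 14 was among the lowest by the mean log2 ratio, with a low value in v102 and a high one in v134.

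Defb47, chr14:62997827-62998126, plus strand: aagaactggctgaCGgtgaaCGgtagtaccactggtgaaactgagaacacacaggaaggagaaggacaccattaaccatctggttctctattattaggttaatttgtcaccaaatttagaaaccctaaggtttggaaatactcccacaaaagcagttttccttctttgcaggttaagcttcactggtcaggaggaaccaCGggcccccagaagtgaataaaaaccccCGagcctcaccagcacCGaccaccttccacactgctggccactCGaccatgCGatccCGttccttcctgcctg

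The promoters of Defb8 and Defb10 hold 0 CG dinucleotides, those of Defb26 and Defb28 hold 1 and 3, and those of Defb36 and Defb47 hold 8 each. This order reflects the choice of promoters. Defb15 and Defb13 hold 6 each and were above input, while Defb41 and Defb22 hold 0 and were not. The relation of CG count and H3K9me2 was not tested. Over the 30 RefSeq promoters of members (Defb21 has 2) the median was 1.5 CG, with a range from 0 to 8, compared with a median of 7 over all 32851 RefSeq promoters. The median was 1 for the 14 promoters on chromosome 8 and 3.5 for the 10 on chromosome 2. The motif TATAAA, searched on the gene's strand only, was found in 3 of the 30, at Defb15, Defb48 and Defb23, which is 10% compared with 8.32% of all promoters of the same length. In Defb15 and Defb48 it began 35 and 30 bases before the start site, and in Defb23 221 bases before it.

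H3K9me2 was above input at most beta-defensin promoters. With edgeR's quasi-likelihood test and Benjamini-Hochberg adjustment over all promoters at 0.05, 27 of the 41 were above input, against a background of 18.6% of all 26354 promoters. None was below input, against a background of 17.0% (29 promoters with DESeq2 in place of 4484), and at an unadjusted p under 0.05 there were 0 members below input, as there were 0 with DESeq2. The median log2 fold change of ChIP over input was 1.57 over the 41 members, with a median SE of 0.42, and -0.35 over all promoters. The called members ranged from 1.26 to 2.53 and the 14 others from -0.14 to 1.02. With DESeq2, 21 members were above input, and 5 had no adjusted p, as had 17372 of all 26354 promoters. A promoter without an adjusted p counts as not called in every DESeq2 count given here.

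The same was seen in the counts and in each experiment. A member had 2 to 39 ChIP reads in v102 (median 13) and 3 to 51 in v134 (median 21), compared with medians of 4 and 5 over all promoters. Input reads at the members were 8 to 35 in v102 and 22 to 62 in v134, with medians of 18 and 37, close to the 20 and 37 of all promoters. The log2 ratio of ChIP to input, each scaled to its library's total, had a median over the members of 1.32 in v102 and 1.37 in v134, and 1.50 for the mean of the experiments, compared with -0.11, -0.38 and -0.31 over all promoters. By the mean of the experiments, all 41 members lay above the median promoter, between percentiles 57.5 and 98.4, with a median percentile of 89.5. In single experiments the exceptions were Defb20 and Defb47 in v102 (percentiles 41.6 and 16.4) and Defb36 in v134 (33.0). In both experiments 28 of the 41 were in the top quartile of promoters, compared with 4658 of all 26354. In neither experiment were 5 of the 41 in it, compared with 17814 of all promoters.

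**Figure D1:**
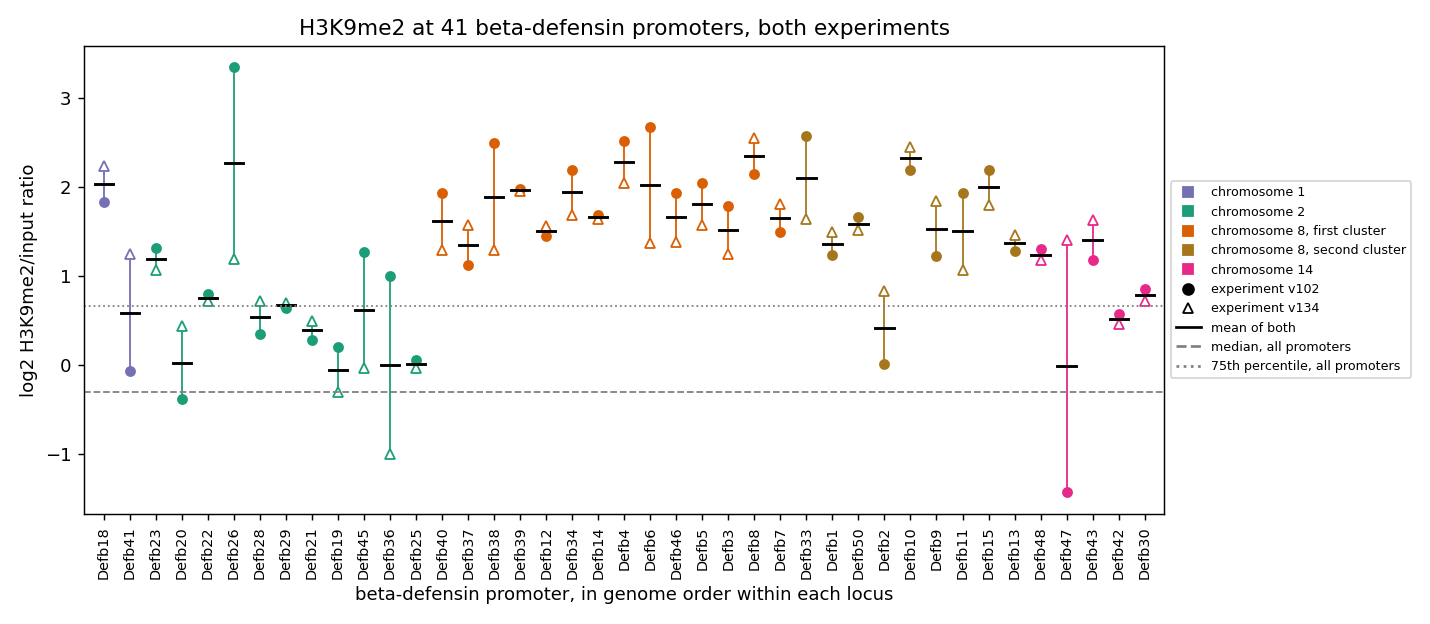
Log2 H3K9me2/input ratio, scaled to the library totals, of each of the 41 beta-defensin promoters in experiments v102 and v134, ordered along the chromosomes, with horizontal lines for the reference levels over all promoters given in its legend. The chromosome 8 promoters sit high in both experiments, while Defb26, Defb36 and Defb47 have points far apart.

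The excess of H3K9me2 was concentrated on chromosome 8, where 22 of 23 promoters were above input, in the first cluster 14 of 14 and in the second 8 of 9. With single libraries left out in turn, the count on chromosome 8 was lowest at 16, without the v134 input library, and that on chromosome 2 was 1 or 2 of 11. Outside chromosome 8, 5 of 18 (27.8%) were above input, which are Defb18 on chromosome 1, Defb23 and Defb26 on chromosome 2, and Defb43 and Defb48 on chromosome 14. By locus, the median of the deposited ratio (ChIP reads of both experiments over input reads of both) was 0.732 and 0.672 in the 2 clusters of chromosome 8, 0.698 on chromosome 1, 0.367 on chromosome 14 and 0.323 on chromosome 2. Over all promoters the median was 0.162 and the 75th percentile 0.343, and 22 of 23 members on chromosome 8 reached that percentile compared with 10 of 18 elsewhere.

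When reads were pooled over the members of a locus and scaled to library totals, the ChIP/input ratio on chromosome 8 was 3.65 times that of all promoters together in v102 (95% Wilson interval 3.19 to 4.19) and 3.12 times in v134 (2.81 to 3.46). For the 18 promoters elsewhere the values were 1.86 (1.55 to 2.23) and 1.81 (1.58 to 2.08). The intervals of chromosome 8 and of the 18 other members together did not overlap in either experiment. Such intervals account for counting alone and not for spread between promoters or experiments. No molecular identifiers marked repeated copies of a molecule, so the intervals may be too narrow even for counting. The median log2 ratio was 1.13 higher on chromosome 8 than on chromosome 2, by 1.29 in v102 and 1.08 in v134 (SD 0.15, n = 2). This pair of loci was chosen after their values were seen, and with 2 experiments the smallest two-sided exact permutation p is 0.5, so the difference was given no test.

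**Figure D2:**
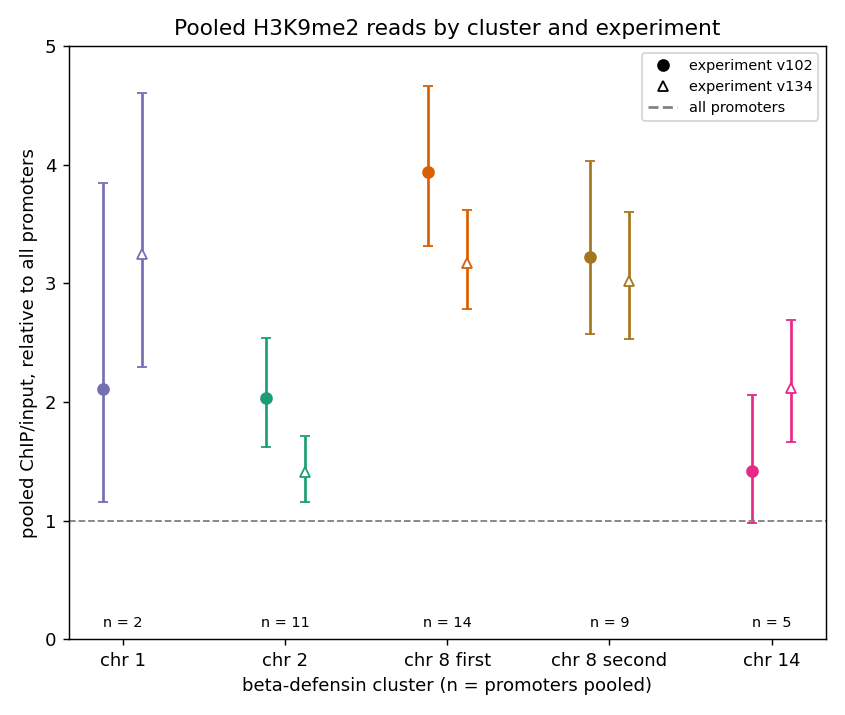
H3K9me2 enrichment of reads pooled over the beta-defensin promoters of each locus, ChIP over input scaled to library totals, in experiments v102 and v134, with 95% Wilson intervals for counting error. Both clusters of chromosome 8 lie above 3 in both experiments, and chromosomes 2 and 14 lie between 1.41 and 2.11.

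The highest members came mainly from chromosome 8. Defb8, a defensin gene of the first cluster (8:19445769-19447606, minus strand), had 21 and 51 reads in the ChIP libraries in v102 and v134 and 18 and 41 in the inputs. Its ChIP counts exceeded its input counts in both experiments, although the ChIP libraries held far fewer promoter reads in total. The edgeR log2 fold change was 2.53 (SE 0.35, adjusted p = 5.41e-11).

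Defb10, in the second cluster, had 17 and 29 reads in the ChIP libraries and 14 and 25 in the inputs, and a log2 fold change of 2.48 (SE 0.40, adjusted p = 2.79e-08). The log2 ratios of both genes differed little between experiments, at 2.35 ± 0.29 for Defb8 and 2.32 ± 0.18 for Defb10 (SD, n = 2). Defb33, at the start of the second cluster, had 27 and 28 reads in the ChIP libraries and 17 and 43 in the inputs, with a log2 fold change of 2.17. Its counts were alike in the ChIP libraries and differed between the inputs, and its log2 ratios were 2.57 and 1.64.

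Defb18 on chromosome 1, an epididymal beta-defensin gene, was the only member outside chromosomes 2 and 8 among the 6 highest. It had 13 and 30 reads in the ChIP libraries and 14 and 30 in the inputs (log2 fold change 2.22, SE 0.40, adjusted p = 8.33e-07). Its neighbour Defb41, 27.7 kb away, had 3 and 23 reads in the ChIP libraries and 15 and 47 in the inputs, and missed the threshold (log2 fold change 1.02, SE 0.43, adjusted p = 0.0503). ChIP reads at Defb41 were few in v102 and many in v134, and without the v102 ChIP library it was above input (adjusted p = 0.000776). Without the v134 ChIP library its log2 fold change was -0.81 (adjusted p = 0.489).

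Of 5 beta-defensins named as made by epithelia, 4 were above input (3 with DESeq2), against 18.6% of all promoters. All 5 lie on chromosome 8, where 22 of 23 members were above input. Defb4, the gene of a beta-defensin of the upper airway and oesophagus, had 20 and 26 reads in the ChIP libraries and 13 and 30 in the inputs, with a log2 fold change of 2.37 (SE 0.40, adjusted p = 8.69e-08). Defb14, the mouse counterpart of human beta-defensin 3 in skin, had 15 and 30 reads in the ChIP libraries and 18 and 46 in the inputs, with a log2 fold change of 1.76 (SE 0.38, adjusted p = 4.45e-05). Both had higher log2 ratios than most promoters in each experiment, with SDs of 0.34 and 0.03.

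Defb3, another inducible epithelial gene, had 17 and 13 reads in the ChIP libraries and 19 and 27 in the inputs (log2 fold change 1.64, SE 0.43, adjusted p = 0.00121). Defb1, which epithelia of the kidney and airway make without induction, had 15 and 18 reads in the ChIP libraries and 25 and 31 in the inputs (log2 fold change 1.47, SE 0.41, adjusted p = 0.00239). Both calls were lost without the v134 input library, at an edgeR adjusted p of 0.0835 for Defb3 and 0.137 for Defb1.

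Defb2, whose product is induced in the airway by bacterial lipopolysaccharide, was the only member on chromosome 8 not above input. It had 4 and 11 reads in the ChIP libraries and 18 and 31 in the inputs, and a log2 fold change of 0.54 (SE 0.53, adjusted p = 0.416). It lies between Defb50 and Defb10, both above input, and its 95% interval for the deposited ratio (0.173 to 0.542) overlapped that of Defb50 (0.458 to 0.987) and not that of Defb10 (0.772 to 1.80). Its mean log2 ratio lay at percentile 69.5 of all promoters.

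The remaining members of chromosome 8 spanned a narrow range. In the first cluster the deposited ratio ran from 0.593 at Defb37 to 1.22 at Defb8, and in the second, apart from Defb2, from 0.587 at Defb13 to 1.18 at Defb10. The most ChIP reads of any member were those of Defb39, with 36 and 44 reads in the ChIP libraries and 35 and 54 in the inputs (log2 fold change 2.09). Defb40, Defb38, Defb34, Defb6, Defb46 and Defb5 in the first cluster and Defb50 and Defb15 in the second were above input with every single library left out in turn. Defb7, Defb9, Defb11, Defb12, Defb13 and Defb37 each lost the call without at least 1 library. Across the 23 promoters the log2 ratios of v102 and v134 were only loosely ordered alike, with a Spearman rho of 0.25, compared with 0.61 over all 41 members. Since the points share libraries and rest on few reads, these values are a description.

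On chromosome 2, 2 of 11 promoters were above input and 9 were not, a share of 18.2% that is near the 18.6% of all promoters. Defb26, a gene of the epididymis, had 39 and 25 reads in the ChIP libraries and 14 and 53 in the inputs, with a log2 fold change of 2.29 (SE 0.35, adjusted p = 4.39e-09). Its size differed between the experiments. The unscaled ChIP/input ratio was 2.79 in v102 (95% interval 1.53 to 5.08) and 0.472 in v134 (0.294 to 0.756), which placed it at percentiles 99.8 and 84.7. Without the v102 ChIP library it was still above input, with a log2 fold change of 1.76 (edgeR adjusted p = 0.000492).

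Defb23, likewise epididymal, had 14 and 27 reads in the ChIP libraries and 22 and 62 in the inputs (adjusted p = 0.00446), and its call was lost without the v134 ChIP library or the v102 input library. Defb19 and Defb25 had the fewest ChIP reads of all members. Defb19 had 5 and 5 reads in the ChIP libraries and 19 and 34 in the inputs, and its log2 fold change was -0.14 (SE 0.58, adjusted p = 0.865). Defb25 had 5 and 5 reads in the ChIP libraries and 21 and 28 in the inputs (log2 fold change -0.04, SE 0.59, adjusted p = 0.961). Both were close to the input level in each experiment.

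Defb36 had 11 and 3 reads in the ChIP libraries and 22 and 37 in the inputs, so its ChIP reads were more numerous in v102, and its log2 fold change was 0.20 (SE 0.52, adjusted p = 0.776). The other promoters of the cluster, Defb20, Defb22, Defb28, Defb29, Defb21 and Defb45, had deposited ratios between 0.224 and 0.364. Without Defb26 the pooled enrichment of chromosome 2 was 1.44 (1.11 to 1.87) in v102 and 1.30 (1.05 to 1.61) in v134, compared with 2.03 and 1.41 with it. The 9 promoters of the cluster that were not called had SEs from 0.43 to 0.59 on the log2 scale, so that a modest excess over input was not detectable at this depth.

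On chromosome 14, Defb43 and Defb48 were above input and Defb47, Defb42 and Defb30 were not. Defb43 had 12 and 29 reads in the ChIP libraries and 21 and 45 in the inputs (log2 fold change 1.57, SE 0.38, adjusted p = 0.000448), and Defb48 had 10 and 20 reads in the ChIP libraries and 16 and 43 in the inputs (adjusted p = 0.00904). The calls of both were lost without the v134 ChIP library, and that of Defb48 also without either input library.

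Defb47 had the largest SD between experiments of all members (2.01 on the log2 scale), with 2 and 18 reads in the ChIP libraries and 30 and 33 in the inputs. The unscaled ChIP/input ratio was 0.0667 in v102 (95% interval 0.0176 to 0.252) and 0.545 in v134 (0.309 to 0.961), and the log2 fold change was 0.55 (SE 0.46, adjusted p = 0.343). Without the v102 ChIP library its log2 fold change was 1.31 (adjusted p = 0.0204), and without the v134 ChIP library it was -1.46 (adjusted p = 0.236). Defb26 and Defb47 were the 2 members of 41 whose intervals of the unscaled ratio did not overlap between experiments. The library totals differ between experiments, and the share of all promoters with such intervals is not given. This count is therefore a description only. Over all members the median SD between experiments was 0.31 on the log2 scale, and 17 of 41 were higher in v134.

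Other genes inside and beside the clusters were read for comparison. On chromosome 8, Xkr5 lies 27.3 kb before Defb40 and had a deposited ratio of 0.0952, followed outwards by Agpat5 at 0.0588 and Angpt2, which encodes an angiopoietin of blood vessels, at 0.0455. Angpt2 was below input (edgeR adjusted p = 0.0234), on 3 and 0 ChIP reads in v102 and v134 and with log2 ratios of -0.07 and -3.46. Calls below input over all promoters fell from 4484 to 2187 with the replicate block. They fell to 29 with DESeq2, in which 17372 promoters had no adjusted p. Inside the first cluster, the epididymal sperm antigen genes Spag11b and Spag11a had ratios of 0.458 (above input, adjusted p = 0.0327) and 0.352 (adjusted p = 0.204).

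In the second cluster, Gm15056, Gm6040 and AY761185, which follow Defb33, had ratios of 0.846, 0.507 and 1.55 and were all above input. They count as other genes by symbol alone, as do Spag11b and Spag11a. Whether any of these genes belongs to the defensin family was not examined. After Defb13, Ccdc70 at 23.0 kb was above input with 0.680, while the copper transporter gene Atp7b, at 113.5 kb, had 0.0625 and Alg11, beside it, 0.224, neither above nor below input. No other gene of the table with a matched position lies between Defb7 and Defb33. From Defb40 to Ccdc70, the matched promoters that did not pass the test were Spag11a and Defb2. Much of this stretch was not observed. The gap from Defb7 to Defb33 is 1398 kb, and no matched promoter lies between AY761185 and Defb1, which are 52.0 and 884 kb after Defb33.

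On chromosome 2, of the 3 nearest genes on each side, Sox12 before the cluster and Rem1 and H13 after it were below input. Their ratios were 0.0417, 0.0370 and 0.0455, and the calls rest on 1 or 2 ChIP reads per library. Rem1 lies 3.9 kb from Defb25. Nearer on the side before the cluster, 6820408C15Rik (0.426, adjusted p = 0.0502) and Zcchc3 (0.370) passed the test in neither direction and lay above the 75th percentile of all promoters. Inside the cluster Gm17416 was above input at 0.533 and Gm14161 had 0.105. On chromosome 14 the nearest 3 genes on each side had ratios from 0.0465 to 0.381 and did not pass the test in either direction. On chromosome 1, of the 3 nearest genes before the pair, Crispld1 and Gm16070 had ratios of 0.167 and 0.159 and passed the test in neither direction. Crisp4, which encodes an epididymal secretory protein and lies 91.5 kb before the pair, was above input with 0.573. Tfap2d, Gm15825 and Tfap2b, which lie 838 to 944 kb after it, were also above input, with 0.521, 0.622 and 0.593.

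**Figure D3:**
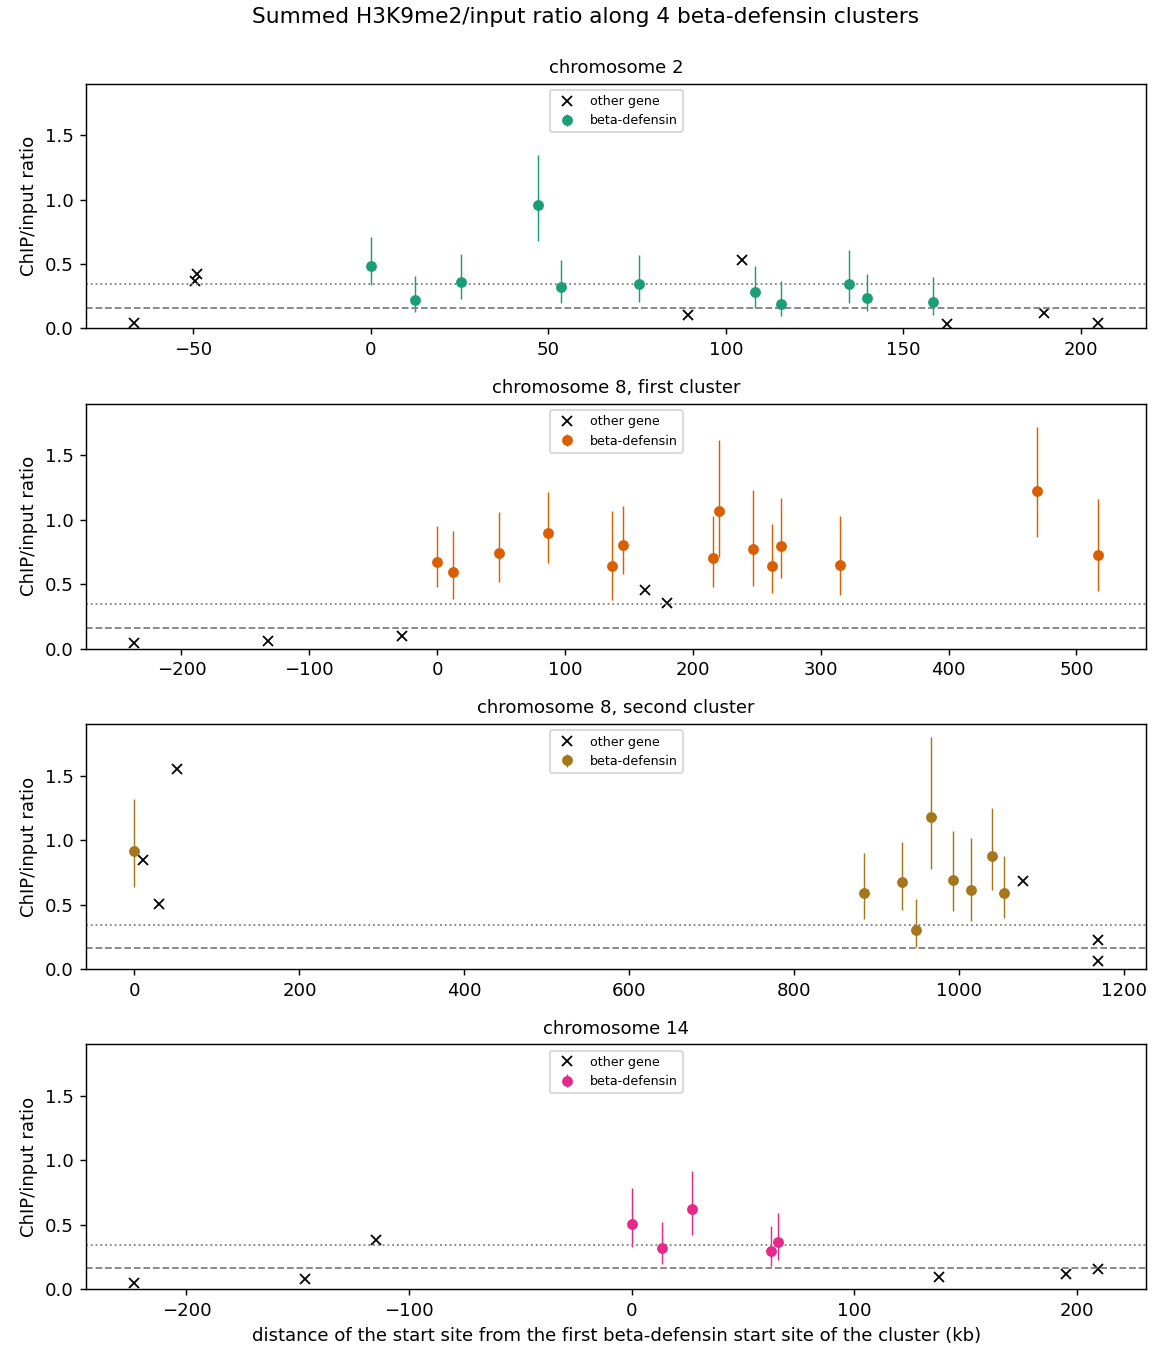
Deposited ratio of ChIP to input, summed over the experiments, along 4 beta-defensin loci, by distance of the start site from the first member in kb, with filled points for beta-defensins (95% Wilson intervals) and crosses for genes with other symbols. The dashed line is the median of all promoters (0.162) and the dotted line their 75th percentile (0.343), and on chromosome 8 all members but Defb2 are above the dotted line while Xkr5, Agpat5, Angpt2 and Atp7b are below the dashed line.

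GC content moved with the ratio and differed between loci. The windows of the members had a median GC content of 43.5%, from 31.1% to 51.5%, compared with 50.9% over all promoters, and medians by locus of 31.9% on chromosome 1, 48.0% on chromosome 2, 41.9% and 45.1% in the clusters of chromosome 8 and 43.9% on chromosome 14. Across the 41 members the Spearman rho of GC content and log2 ratio was -0.60, and within chromosome 8 it was -0.28 over 23 members. Of the 5025 other promoters in the GC range of the chromosome 8 members, 33.5% were above input, and of the 7965 in the range of the chromosome 2 members, 17.7% were.

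With the trend of the ratio on GC content removed, the median log2 ratio of the members was 0.88, with a median percentile of 82.0. The median percentile was 88.2 on chromosome 8 and 68.7 elsewhere. Defb41, with the lowest GC content of all members, moved from percentile 73.4 to 14.2, and Defb18 from 96.2 to 68.6. Defb8 and Defb10 were at percentiles 95.2 and 98.3 after the removal. The median log2 ratio of chromosome 8 then exceeded that of chromosome 2 by 0.52. The part of GC content in the differences between loci was not tested beyond these values.

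**Figure D4:**
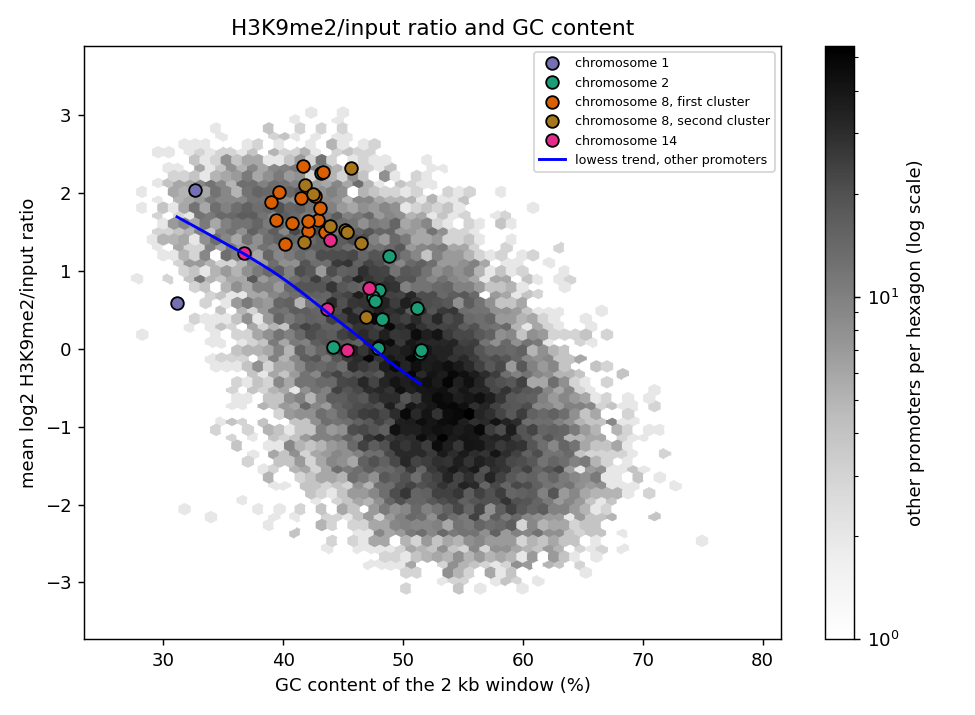
Mean log2 H3K9me2/input ratio of each of the 41 beta-defensin promoters against the GC content of its 2 kb window in percent, coloured by locus, over hexagons shaded by the number of other promoters and with their lowess trend as a line. Chromosome 8 members lie between 39.0% and 46.9% GC with high ratios, and chromosome 2 members between 43.2% and 51.5%.

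Genes known from the tissues that make defensins were read from lists of their own. Of 18 listed genes of the epididymis without a defensin symbol, 7 (38.9%) were above input (4 with DESeq2), against 18.6% of all promoters. The other 11 did not pass the test, among them Spag11a, which lies inside the first chromosome 8 cluster. The median GC content of this list was 44.2%, and of other promoters in the GC range of the chromosome 8 members 33.5% were above input. Among the 7 were Spag11b inside the first chromosome 8 cluster, Adam7 (0.622), a sperm-maturation protease family gene, and Lcn5 (0.596), a retinoid-binding lipocalin gene. Of 12 genes of Paneth cells and intestinal defence, 4 were above (3 with DESeq2) and 3 below, against 18.6% and 17.0% of all promoters. The 3 calls below input were lost with the replicate block and with DESeq2. Reg3b, Reg3a and Reg3g, which encode antimicrobial lectins, had ratios of 1.33, 1.05 and 0.879, whereas Mmp7, whose product cuts alpha-defensin precursors, had 0.226 (adjusted p = 0.823).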

How the data were processed

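H3K9me2 ChIP and input libraries from 2 experiments (v102 and v134) were used. Per the labels and methods of the study, the authors trimmed the reads, aligned them to GRCm38 and used SeqMonk to count those lying up to 1 kb from a transcription start site, and removed promoters with fewer than 20 input reads. The submitters' processing notes name Trim Galore 0.4.2, cutadapt 1.9.1 and Bowtie2 2.2.7. The annotation release and the treatment of duplicates are not given in the sources used here. The deposited values are raw read counts for each library, their sums, and a ratio, ChIP over input of the summed reads, which is not scaled for library size.

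From these counts, ChIP was compared with input by edgeR 4.0.16 (R 4.3.3; quasi-likelihood test, TMM, Benjamini-Hochberg adjustment over 26354 promoters, threshold 0.05), with no replicate block. The SE is the size of the log2 fold change divided by the square root of F. The log2 ratio used a pseudocount of 1 read and library totals over the table, and ± is the SD of 2 experiments. The test rests on 2 libraries against 2. Its p-values use an estimate of variability that borrows from all promoters, so they measure a single promoter's spread between experiments only in part. Defb26 and Defb8, with SDs of 1.53 and 0.29 between experiments, both had an SE of 0.35. The libraries are not paired in this fit. The adjusted p of Defb8 was 1.12e-05 in edgeR with the replicate block and 0.000271 with DESeq2. The edgeR test was also run on simulated counts. Start sites and GC content (lowess fraction 0.3) came from GENCODE vM21, in which 84.6% of all symbols and all 41 members match 1 gene. Since the authors' start sites may differ, coordinates and GC content are those of GENCODE. At all but 2 of the 29 members with a RefSeq promoter the RefSeq start lies within 200 bases of the GENCODE start, the exceptions being Defb45 and Defb30 (2.91 and 12.1 kb).

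Each ChIP has its own input in the study, and libraries of the same experiment number are therefore pairs. The differences between experiments in ChIP and in input had a correlation of 0.10 across promoters.

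Alternatives were DESeq2 1.42.0, library totals, another minimum, other pseudocounts, a replicate block, GC removal and fits without single libraries. Members and gene lists were chosen with earlier results of these data known. The genes described with counts are the 6 highest and 4 lowest members by mean log2 ratio and 5 epithelial genes (Defb1, Defb2, Defb3, Defb4, Defb14), and by value those past the threshold, the 3 nearest genes on each side of a cluster and the listed genes. Counts of other members were added after their values were seen, as were the comparison of chromosomes, the fits without single libraries and those without Defb26. Other software was matplotlib 3.10.9, scipy 1.17.1, pandas 2.3.3, statsmodels 0.14.6, numpy 2.4.6 and Python 3.11.15.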

Additional observations from a re-analysis of the deposited data

How the results depend on the processing

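The number of beta-defensin promoters above input was 27 with library totals in place of TMM and 27 with the replicate block, which called the same 27 genes and changed no member's call. It was 21 with DESeq2, where Defb1, Defb11, Defb12, Defb23, Defb37 and Defb48 lost the call, and 28 without mitochondrial rows, where Defb41 was added. Under a minimum of 20 reads for both inputs only 16 members remained, and 10 of these were above input. Without single libraries, a fit chosen after seeing the data, it ranged from 20 to 28, and 0 were below input in every fit. Over all promoters, the 4902 above and 4484 below input became 3026 and 29 with DESeq2, 2446 and 1678 under that minimum, and 4173 and 2187 with the replicate block, and ranged from 3037 to 5028 and from 495 to 3995 without single libraries (lowest for both without the v102 input library). With library totals they were 4303 and 5677, and their median log2 fold change was 0.14 lower. DESeq2 gave no adjusted p for 17372 promoters, and these count as not called. The cause of the shifts between fits was not tested. The median log2 ratio of the members, 1.50, was 1.61 with a pseudocount of 5, 1.45 with summed reads and 1.59 under the same minimum. It was 0.88 with the GC trend removed within each experiment, 1.45 without Defb26 and 1.32 to 1.37 in single experiments, in which no test was possible. The excess of chromosome 8 over chromosome 2, 1.13, was 0.86 with a pseudocount of 5. It was 0.52 with the GC trend removed within each experiment, and 1.08 to 1.29 in single experiments. No called direction was reversed under any alternative run. Leaving out shared windows or repeated sequence removed no member, the table has no row under the minimum, and the alternatives for alpha-defensins gave no value. Depth limits single promoters, at 10 to 80 summed ChIP reads.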

Other observations

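Of 14 promoters of antimicrobial genes of neutrophils and epithelia outside the defensin family, 1 was above input (7.14%, against 18.6% of all promoters). This was S100a9, which encodes a subunit of the neutrophil protein calprotectin (deposited ratio 0.429, edgeR adjusted p = 0.0457), and it was not above input with library totals, the replicate block or DESeq2. The other 13 did not pass the test in either direction. S100a8, which encodes the partner of S100a9, had 0.301, and the cathelicidin gene Camp had 0.186. Of 5 receptor genes linked to beta-defensins, 1 (20%, near the 18.6% of all promoters) was above input. This was Ccr2, with 11 and 30 reads in the ChIP libraries and 21 and 62 in the inputs (ratio 0.494), and it was not called with DESeq2. Ccr6, the chemokine receptor bound by several beta-defensins, had 8 and 9 in the ChIP libraries and 16 and 50 in the inputs (ratio 0.258). In the list of Paneth cell and intestinal genes, Itln1 was above input as well (0.520), and Ang4, Wnt3 and Reg4 were below it (0.0392, 0.0417 and 0.0484), calls that were lost with the replicate block and with DESeq2.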
